A study of Mus musculus with 2 samples.

Results

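The cluster described here is the run of 39 annotated microRNA genes that lies between Mir379 and Mir3072 on the plus strand of mouse chromosome 12, from 109709060 to 109747960 in the mm10 assembly. Its genes are 39 of the 2202 microRNA gene identifiers counted in the series, and they were chosen by strand and position alone, with the GENCODE M21 annotation. Small RNAs with inserts under 30 nt were sequenced from gastrocnemius, the large calf muscle, of male mice aged 2 months. The animals were B6CASTF1/J, hybrids of C57BL/6J with the wild-derived strain CAST/EiJ, and no treatment or mutation is named. The series holds 2 libraries of this 1 group, biological replicates 1 and 2, which the labels trace to separate tissue samples of separately numbered males, with 1 donor record for both. No second condition exists, so the data give the level of each gene and how far the libraries differ.

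The cluster is the distal part of the Dlk1-Dio3 imprinted region. Imprinted genes are read from the chromosome of 1 parent, and the noncoding RNAs of this region (Meg3, the Rtl1 antisense RNA, Rian and Mirg) are read from the maternal one. The microRNAs are thought to be cut from a long maternal transcript, so that neighbours share a promoter while each hairpin is processed on its own. In muscle the region is known from the callipyge sheep, whose hindquarter muscles enlarge, and from MEF2A, a transcription factor that activates it during regeneration. By the naming rule for hybrid mice the strain written first is the mother's, here C57BL/6J, the strain of the assembly. The deposited counts hold no allele information.

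GENCODE M21 places the gene Mirg at 109729764 to 109749460, so it spans only the distal end of the cluster. Of the 39 genes, 25 lie upstream of the annotated Mirg start and 14 within it, 5 of them in introns, 4 inside an exon and 5 across an exon boundary. The name Mirg therefore fits those 14 by annotation, and the whole run is called the cluster below. It is compact: the 39 hairpins span 38.9 kb, with a median gap of 556 bases between neighbours. The hairpins are 61 to 123 nt long (median 79).

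The members of the cluster resemble each other in sequence without being copies. RefSeq sequences (GRCm38.p6, a patch release of mm10) were found for 38 of the 39 genes, all but Gm27379. They give 71 mature microRNAs. Only 33 genes have 2 of them listed, so the seed counts below leave out arms that are not listed. None of the 71 occurs whole in another counted microRNA gene on either strand, leaving aside genes that overlap the same hairpin. The sequences below are those of the leading genes and of the related pairs to which the values return. Each is written 5′ to 3′ with the seed, bases 2 to 8, in capitals. The seed is the stretch that pairs with target messenger RNAs.

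miR-411-5p: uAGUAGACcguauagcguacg
miR-379-5p: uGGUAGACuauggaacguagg
miR-1193-5p: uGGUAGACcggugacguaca
miR-411-3p: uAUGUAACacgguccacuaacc
miR-379-3p: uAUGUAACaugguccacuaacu
miR-299a-5p: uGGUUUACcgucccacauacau
miR-376c-5p: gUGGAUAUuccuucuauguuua
miR-376b-5p: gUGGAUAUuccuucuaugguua
miR-541-5p: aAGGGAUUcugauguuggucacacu
miR-369-3p: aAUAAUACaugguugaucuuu
miR-543-3p: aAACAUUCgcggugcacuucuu
miR-495-3p: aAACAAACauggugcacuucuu
miR-381-3p: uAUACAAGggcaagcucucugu
miR-300-3p: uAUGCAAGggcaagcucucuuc

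The 71 mature sequences held 65 different seeds, and 6 seeds occurred in a pair of them. The seed AUGUAAC is shared by miR-379-3p and miR-411-3p, which match at 20 of 22 bases. The 5p partners of the same hairpins differ inside the seed by G2A (positions from the 5′ end, the base of miR-379-5p first), and miR-379-5p shares its whole seed GGUAGAC with miR-1193-5p instead. The seed UGGAUAU is common to miR-376b-5p and miR-376c-5p, which differ only by G19U. The other shared seeds are GGUUGAC (miR-758-5p and miR-1197-5p), GGUUGCC (miR-453 and miR-496a-5p) and GGUUGUC (miR-410-5p and miR-494-5p). Near pairs without a common seed are miR-495-3p and miR-543-3p, which match at 18 of 22 bases with A6U and A7U in the seed, and miR-300-3p and miR-381-3p, which match at 19 of 22 with G4A in the seed. Of the 71 sequences, 11 share a seed with a mature microRNA outside the cluster, such as miR-329-3p with miR-362-3p. Counts are per gene and do not tell the 5p arm from the 3p arm, so no level can be given for a seed.

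The hairpin ends recur as well. The letters UACUUG stood in the first 20 bases of 9 of the 39 hairpins (23.1%) and in 0.601% of the 2163 other counted genes. The letters AGUAUC stood in the last 20 bases of 7 of 39 (17.9%) and in 0.0925% of the others. Mir411, Mir494, Mir487b and Mir369 had both, as did 0 of the other genes. These letters were searched on the strand of the gene and were picked after the hairpins had been read, so the shares are a description.

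Replicate 1 held 638779 reads assigned to a single microRNA gene and replicate 2 held 2272132, so values of replicate 2 carry less counting error. Levels are given as CPM, counts per 1000000 of these reads. A read covers a whole mature microRNA, so no division by length is needed. Reads that matched several places, 75.2% and 74.4% of all reads, are in no gene's count. The muscle microRNA genes listed as a check of the tissue (Mir206, those of miR-1 and miR-133, Mir499 and Mir486) were all detected, 8 of 8, and summed to 22321 CPM in the first replicate and 51339 CPM in the second. Mir206 alone gave 20325 and 48078 CPM of these sums, and of the 8 ratios 4 were above 1 and 4 below. Because reads that matched several places are not counted, these values do not rank the muscle microRNAs by abundance.

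MicroRNAs of the cluster were present in adult gastrocnemius and made up a little over 1% of assigned reads. Of all reads, multi-mapping and other unassigned ones included, the cluster held 0.188% in replicate 1 and 0.193% in replicate 2. Its genes held 6955 counts in replicate 1, or 1.09% of that library (exact Clopper-Pearson 95% interval 1.06 to 1.11%), and 27200 counts in replicate 2, or 1.20% (1.18 to 1.21%). The summed level was 11430 ± 766 CPM (SD, n = 2). The sum was 1.10-fold higher in replicate 2 (interval of counting error 1.07 to 1.13), a small difference against the fold changes of single members below. The size of this difference depends on the scale, as the shares of all reads, 0.188% and 0.193%, lie closer together. In bulk tissue a level cannot tell fewer cells of a type from less RNA per cell. The intervals cover counting error only and not the spread between mice. Sequenced PCR copies without molecular identifiers are not independent molecules, so the intervals may be too narrow even for counting error.

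Detection, meaning 2 CPM or more in both libraries, was reached by 32 of the 39 genes (82.1%), against 13.8% of all 2202 counted genes. That background holds 1653 genes with no count in either library, many of them without a Mir name. Of the 20 counted genes of the same region upstream of the cluster, 12 were detected (60%). Of the 39, 13 reached 100 CPM in both libraries and 2 reached 1000 CPM. The 4 genes Mir1197, Mir654, Gm27379 and Mir453 had no count in either library. A count of 0 cannot tell absence from a level under 4.70 CPM in the shallower library or under 1.32 CPM in the deeper one, and it covers only reads that match a single place. The other 3 undetected genes were at the edge of counting. Mir758 had 1 and 0 counts, Mir544 had 1 and 3, and Mir3072, the last gene of the cluster, had 1 and 9 (1.57 and 3.96 CPM).

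**Figure D1:**
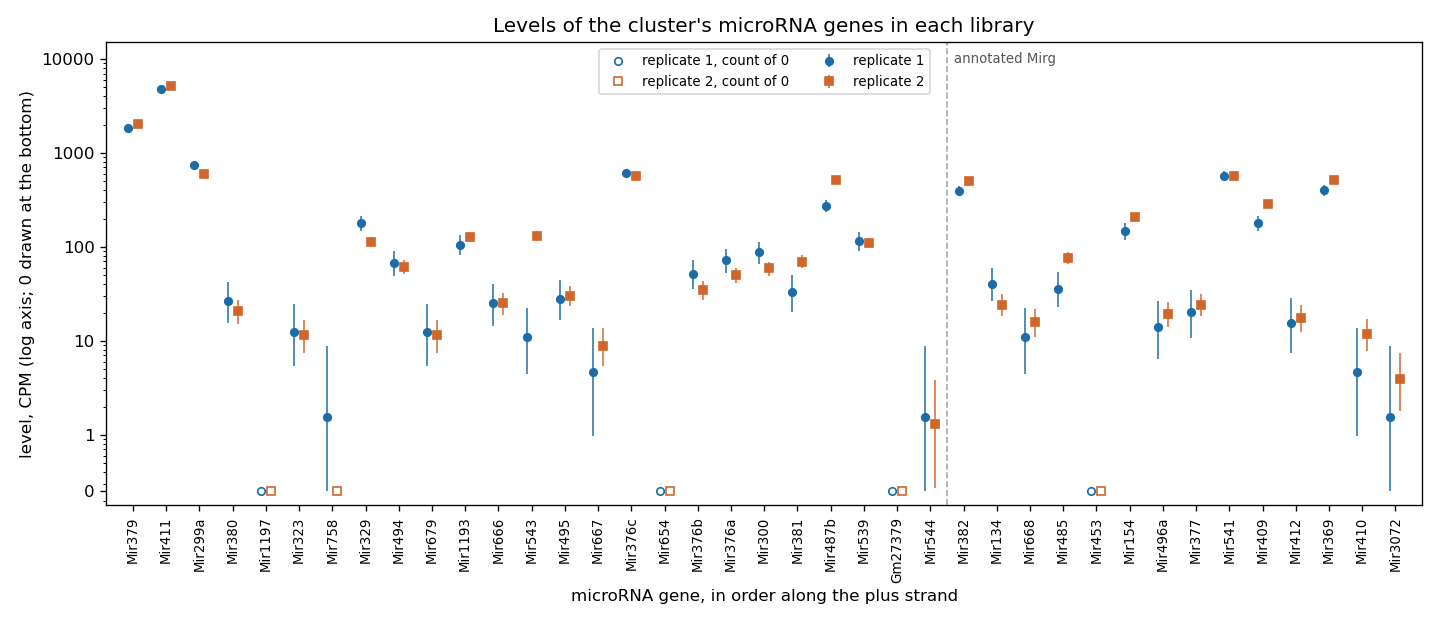
Level of each of the 39 genes in CPM (log axis) in replicate 1 (circles) and replicate 2 (squares), in order along the strand, with exact 95% intervals of counting error; open symbols at the bottom are counts of 0, and the dashed line marks the start of annotated Mirg. The levels run from 0 to the 4770 and 5134 CPM of Mir411, neighbouring genes differ by orders of magnitude, and Mir543 is the gene whose squares and circles lie farthest apart.

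Reads were concentrated in the first genes of the cluster. Mir411 (ENSMUSG00000065477.3, 109710175 to 109710256), a microRNA reported to restrain myogenic factors in myoblasts, had 4770 CPM in replicate 1 and 5134 CPM in replicate 2. It alone gave 43.8% of the cluster's counts in replicate 1 and 42.9% in replicate 2 (43.3% ± 0.653, SD, n = 2). Among all 2202 genes it ranked 30 by mean CPM, with reads that matched several places left out for every gene. Mir379 (ENSMUSG00000065498.4, 109709060 to 109709125), the first gene of the cluster and one raised by glucocorticoids in mouse liver, had 1835 and 2011 CPM, 16.9% and 16.8% of the cluster's counts. The order of this pair was the same in both libraries, with Mir411 at 2.60 and 2.55 times the level of Mir379. Together the pair held 60.2% ± 0.691 of the counts, the leading 5 genes 76.3% ± 2.82 and the leading 12 genes 93.4% ± 0.334. Mir411 shares a run of 21 bases with Mir758 and reads that fit both are in neither count, but no mature sequence of either gene lies whole in the other.

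**Figure D2:**
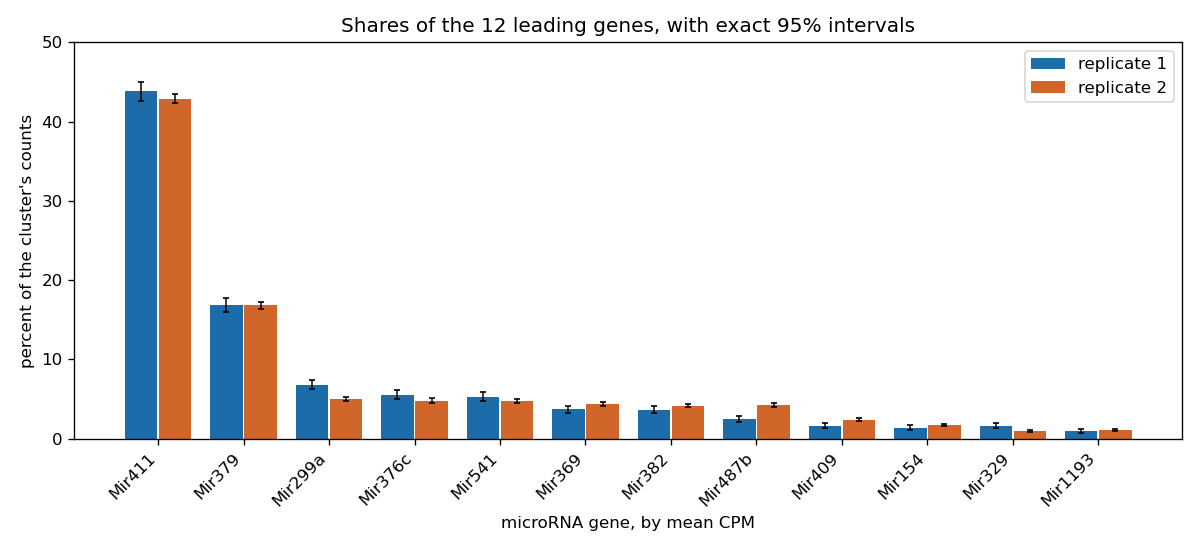
Percent of the cluster's counts held by the 12 genes of highest mean CPM in replicate 1 and replicate 2, with bars from 0 and exact 95% intervals of counting error. Mir411 holds 43.8% and 42.9% and Mir379 16.9% and 16.8%, while each of the other 10 stays under 7% in both libraries.

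Behind the leading pair came a group whose levels lay between 272 and 737 CPM. Mir299a, next in order, had 737 CPM in replicate 1 and 602 CPM in replicate 2. Mir376c, of a family whose hairpins are known substrates of adenosine-to-inosine editing, had 604 and 573 CPM. Mir541, linked to the restraint of cardiac hypertrophy, had 575 and 571 CPM. These 3 kept their order in both libraries, but in replicate 2 Mir376c and Mir541 were almost level, with 1303 and 1297 counts. Mir369, whose 3p arm acts on AU-rich elements of messenger RNAs, had 399 and 522 CPM. Mir382 had 393 and 499 CPM. Mir487b, which targets insulin receptor substrate 1 in blood vessels, had 272 and 509 CPM. Mir382 and Mir487b changed places between the libraries, so their order is not fixed by these data. Mir487b shares a run of 20 bases with Mir376b, and Mir299a lies opposite a counted gene and has a value only in the stranded counts, as does Mir409.

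The remaining 4 of the leading 12 were lower. Mir409 had 178 CPM in replicate 1 and 286 CPM in replicate 2. Mir154, studied in lung fibrosis, had 147 and 206 CPM. Mir329, a microRNA of neuronal dendrites, had 178 and 112 CPM, so that it equalled Mir409 in replicate 1 and stood below it in replicate 2. Mir1193, which carries the seed of miR-379-5p, had 105 and 127 CPM. The other 27 genes had mean levels of 112 CPM or less.

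By position, the 25 genes upstream of annotated Mirg summed to 9373 ± 454 CPM and the 14 within it to 2057 ± 312 CPM (SD, n = 2). The upstream genes thus held 83.1% of the cluster's counts in replicate 1 and 81.0% in replicate 2. Most of that came from the 8 genes listed as relatives of miR-379 at the 5′ end (Mir379 to Mir329), with 69.4% and 65.9%. The rank of the level did not follow the order along the cluster (Spearman's rho -0.12 across 39 genes). It was lower where the hairpin had more G and C (rho -0.44), and had little relation to the folding energy (rho 0.11). These are descriptions across genes that share 2 libraries and 1 locus. Hairpins of the cluster had a median GC content of 43.6%, against 50.8% over all counted genes.

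Levels were then set side by side for the genes that share a seed. Mir376c exceeded its near copy Mir376b (51.7 and 34.8 CPM) by 11.7 times in replicate 1 and 16.5 times in replicate 2. These hairpins have 31 bases in common, and reads that fit both are missing, so both values are read as uncertain. Mir376a, the third gene of the family, had 72.0 and 50.2 CPM. Mir494, reported to lower mitochondrial transcription factor A in muscle cells, had 67.3 and 61.6 CPM, and Mir410, its partner in the seed GGUUGUC, had 3 and 27 counts (4.70 and 11.9 CPM). Mir496a had 14.1 and 19.4 CPM, while Mir453 had no count. For the seed GGUUGAC, neither Mir758 nor Mir1197 was detected, so their levels cannot be told apart.

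The libraries were then compared gene by gene against counting error. The exact two-sided conditional binomial test was run over the 311 genes with 10 or more counts in both libraries together, with Benjamini-Hochberg adjustment over all of them at 0.05. It compares these 2 libraries and no conditions, and says nothing of the spread between mice. Like the intervals, it takes reads as independent. Of the cluster's genes 33 were tested and 13 passed, 10 higher in replicate 2, 3 lower. This is 39.4% of the tested members, next to 40.5% of all tested genes, so the cluster differed between the libraries about as often as microRNA genes in general. Higher calls made up 30.3% of tested members and 23.2% of all tested genes, and lower calls 9.09% and 17.4%. The median log2 ratio was 0.12 for the members and 0.04 for all tested genes, and the median absolute log2 ratio was 0.39 for both. With TMM scaling 13 also passed, 8 higher and 5 lower, and with the cluster's own totals as the scale, which shifts every log2 ratio by -0.14, 12 passed, 6 higher and 6 lower.

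**Figure D3:**
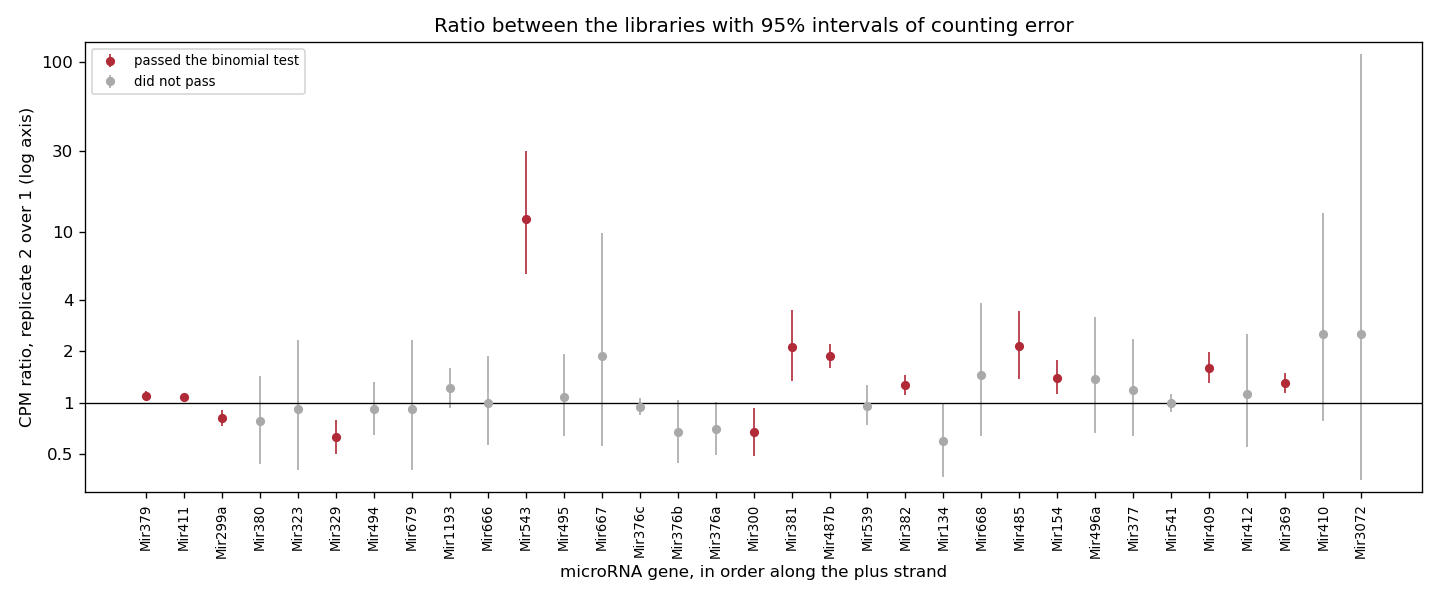
Ratio of CPM, replicate 2 over replicate 1 (log axis), for the 33 tested genes in order along the strand, with exact 95% intervals of counting error; red marks the 13 genes that passed the binomial test with adjustment over all 311 tested genes. Mir543 stands at 11.9, Mir381 and Mir485 just above 2, and the leading pair Mir379 and Mir411 close to 1.

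Mir543 differed most. This gene (ENSMUSG00000076241.2, 109717258 to 109717333), one of those reported to act on N-cadherin in the developing cortex, had 7 counts in replicate 1 and 297 in replicate 2, or 11.0 and 131 CPM. The ratio was 11.9 (interval of counting error 5.72 to 29.9), with an adjusted p of 2.39e-22 by the exact binomial test. Its rank within the cluster moved from 29 to 11. The genes beside it were level between the libraries and did not pass. Mir666, whose start is 173 bases upstream, had 25.0 and 25.1 CPM, and Mir495 had 28.2 and 30.4 CPM. Mir495 is reported to promote heart muscle cell proliferation, and its 3p arm is the near relative of miR-543-3p shown above. The longest run that the Mir543 hairpin shares with another counted gene is 12 bases, with Mir495. Mir543 was also the 1 member that passed edgeR's exact test with the spread between the libraries counted as noise (adjusted p = 0.000756), a test passed by 0.643% of all tested genes. That was also the count at an unadjusted p under 0.05, which 6.43% of all tested genes reached. The noise was estimated from these same libraries, so the test sets a gene against the typical gene and does not compare animals.

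Besides Mir543, 2 genes passed with a ratio of at least 2, a size reached among calls by 3 of 33 tested members and by 9.00% of all tested genes. Mir381 had 32.9 CPM in replicate 1 and 69.5 CPM in replicate 2, a ratio of 2.12 (1.34 to 3.51) with an adjusted p of 0.00187 by the exact binomial test. Its near relative Mir300 moved the other way, with 87.7 and 59.0 CPM and a ratio of 0.673 (0.489 to 0.936). Mir485, a brake on synaptic proteins in neurons, had 36.0 and 77.0 CPM and a ratio of 2.14 (1.38 to 3.46, adjusted p = 0.000998 by the same exact test). The nearby Mir134, known for limiting dendritic spines, had 40.7 and 24.2 CPM and did not pass (ratio 0.595, 0.367 to 0.988). With TMM scaling the log2 ratios of Mir381 and Mir485 were 0.97 and 0.99, and with the cluster's own totals 0.91 and 0.93. Both genes still passed there, but just under 2-fold. With DESeq2 size factors the log2 ratios were 1.01 and 1.03.

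Smaller differences ran through the abundant genes. Higher in replicate 2 were Mir487b at 1.87-fold (1.59 to 2.21), Mir409 at 1.60-fold (1.31 to 1.97), Mir154 at 1.40-fold (1.12 to 1.77), Mir369 at 1.31-fold (1.14 to 1.50) and Mir382 at 1.27-fold (1.11 to 1.46). Lower there were Mir329 at 0.629-fold (0.502 to 0.791), Mir300, and Mir299a at 0.816-fold (0.734 to 0.908). Mir379 and Mir411 passed at 1.10-fold (1.03 to 1.17) and 1.08-fold (1.03 to 1.12). Neither passed with TMM scaling or DESeq2 size factors, and with the cluster's own totals both ratios fell just below 1, so no direction is read for the leading pair. Mir376c and Mir541, of like abundance, did not pass, with ratios of 0.949 (0.846 to 1.07) and 0.994 (0.884 to 1.12).

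Calls were also counted by position and by family. Of all tested genes 40.5% passed, 23.2% higher and 17.4% lower. Within annotated Mirg 5 of 13 tested genes passed, all 5 higher in replicate 2 (Mir382, Mir485, Mir154, Mir409 and Mir369). The median log2 ratio there was 0.40. With TMM scaling these 5 stayed higher and Mir134 passed as lower. With the cluster's own totals 3 of the 5 stayed higher and Mir134 again passed as lower. Upstream of annotated Mirg 8 of 20 passed, 5 higher and 3 lower, with a median of -0.07. With TMM scaling 3 were higher there and 4 lower. The difference between these 2 stretches was not tested. Of the 12 genes listed under the miR-154 family name, all were detected and tested. Higher calls fell on 6 of them (Mir154, Mir369, Mir381, Mir382, Mir409 and Mir487b) and lower calls on 0, so that 6 of 12 passed next to 40.5% of all tested genes (23.2% higher, 17.4% lower). The 12 levels summed to 1656 CPM in the first replicate and 2330 CPM in the second. With the cluster's own totals 4 of the 6 higher calls remained, without Mir154 and Mir382. The 3 miR-376 genes had ratios from 0.673 to 0.949, and none passed. With TMM scaling 1 of them passed as lower (Mir376a), and with the cluster's own totals 2 did (Mir376a and Mir376c).

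Calls were also counted in lists drawn up by reported role, which do not hold every gene with such a role: Mir411 and Mir543 are in neither. The share over all tested genes was again 40.5%, with 23.2% higher and 17.4% lower. Of the 5 genes with roles reported in striated muscle (Mir379, Mir410, Mir494, Mir495 and Mir541), 1 passed (Mir379, which fails on the other 3 scales) and 4 did not, with a sum of 2509 CPM in replicate 1 and 2686 CPM in replicate 2. Mir410, which represses the Wnt inhibitor sFRP2 in regenerating muscle, had 3 and 27 counts and did not pass, with a wide interval around its ratio of 2.53 (0.779 to 13.0). Of the 6 with roles reported in neurons (Mir134, Mir329, Mir369, Mir381, Mir382 and Mir485), 4 were higher, 1 lower and 1 did not pass. With TMM scaling 4 were higher and 2 lower, and with the cluster's own totals 3 were higher and 2 lower. Of 13 neural microRNA genes outside the region (those of miR-9, miR-124, miR-128, miR-137, miR-138 and miR-219) 6 were detected, with a sum of 1177 and 1594 CPM, and 2 of the 6 tested were higher in replicate 2. Those were Mir128-1 (1025 and 1339 CPM) and Mir128-2 (100.2 and 189 CPM), which gave most of the sum. Reads that matched several places are missing here too, so neither the 6 of 13 nor the sums give the abundance of these microRNAs. Of 6 genes listed for satellite cells and myoblasts, led by Mir206, 4 were detected, and 3 of 4 tested were higher in replicate 2. Their sums were 29415 and 57915 CPM. Mir206 is also in the list for the check of the tissue, and it gave most of both sums and of their difference. The sums are therefore not read as a level of satellite cells or myoblasts. The part of other cell types in the levels of the cluster was not tested.

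The nearest comparison is the proximal part of the same imprinted region, the 20 counted genes on the same strand from the start of Meg3 through the Rtl1 antisense RNA and Rian. It summed to 8060 ± 1790 CPM with 12 of 20 genes detected, against 11430 ± 766 CPM and 32 of 39 in the cluster. Its leading genes Mir127 (6123 ± 2064 CPM) and Mir434 (881 ± 297 CPM) moved in opposite directions between the libraries, at 1.63-fold and 0.616-fold. Of its 13 tested genes 5 passed, 3 higher and 2 lower, next to 40.5% of all tested genes (23.2% higher, 17.4% lower). On the scale of assigned reads the sum of that part was 1.37-fold higher in replicate 2 and the sum of the cluster 1.10-fold. The values are set side by side, and the difference was not tested.

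**Figure D4:**
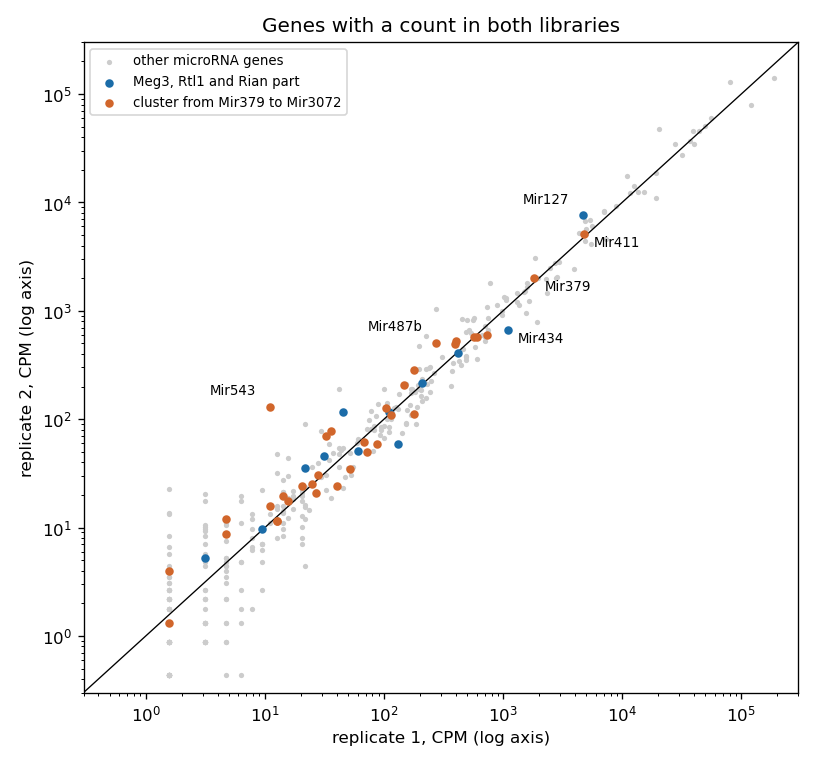
CPM in replicate 2 against replicate 1 (both log axes) for genes with a count in both libraries: the cluster from Mir379 to Mir3072 (orange), the Meg3, Rtl1 and Rian part of the region (blue) and all other microRNA genes (grey), with the line of equal level. Most genes of the cluster lie near the line; Mir543, at 11.0 and 131 CPM, lies farthest from it within the cluster.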

How the data were processed

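MicroRNA sequencing of gastrocnemius was analysed from 2 deposited tables, 1 per library, and no samples were pooled. The authors deposited unnormalized read counts for each microRNA gene, made on mm10 with GENCODE M21 as the accompanying text files state. Names of the aligner and counting program were not given in the sources used here. Of the 3 count columns the second, which holds the larger total of the 2 stranded ones, was read as the strand of the gene. Totals of unassigned reads (unmapped, multi-mapping and the like) were left out of library sizes, so 17.2% and 16.1% of reads were on genes (638779 and 2272132 counts). All 2202 identifiers matched GENCODE M21.

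CPM is counts per 1000000 gene counts. Detection needed 2 CPM in both libraries. Ratios divide replicate 2 by replicate 1, and 0.5 was added to counts for log2 values. Sharing meant 20 or more identical bases with a counted gene elsewhere. The binomial test was tested on simulated data. Alternatives were TMM, DESeq2 size factors, the cluster's own totals, no filter on counts, the unstranded column, edgeR's exact test at a common dispersion, other floors and prior counts, and each library left out.

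The genes and lists were chosen with earlier results of these data known. Full values went to the 12 genes of highest mean CPM, calls of 2-fold or more, genes at 0 in both libraries, the first and last gene and genes with a shared seed; others named were chosen after their values were seen. Software was Python 3.11.15, scipy 1.17.1, R 4.3.3, edgeR 4.0.16, DESeq2 1.42.0 and RNAfold 2.7.2.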

Additional observations from a re-analysis of the deposited data

How the results depend on the processing

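The summed level of 11430 CPM was 10888 to 11971 CPM with 1 library left out. It was 14754 CPM with unstranded counts, 1904 counts per 1000000 of all reads, and 5454 CPM without the 5 genes that share 20 or more bases with another gene. The larger denominator and the fewer genes set the last 2 values; for the first, unstranded totals were smaller over all genes. With strand ignored, the 5 genes that overlap a counted gene on the other strand (Mir299a, Mir380, Mir376a, Mir539 and Mir409) fell to 0 counts. The number detected stayed between 28 and 34 of 39 under every floor, column and library tried (32 to 33 with 1 library left out). The share of Mir411 was 42.9 to 43.8% with 1 library left out and 48.0% with unstranded counts. With shared genes left out, Mir379 led with 35.3%.

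The number of members past the binomial threshold, 13, was 11 to 13 under both other scalings, without a filter, with unstranded counts and with the cluster's own totals. It was 1 by the negative binomial exact test of edgeR, which adds a coefficient of variation of 27.6% as noise. TMM dropped Mir379 and Mir411 and added Mir134 and Mir376a. Mir300 was lost without a filter, and Mir299a and Mir409 with unstranded counts. On the cluster's own totals the log2 ratios of Mir379 and Mir411 turned to -0.0050 and -0.031, 9 of the 13 calls were kept, and Mir382 and Mir154 were lost. Mir495, which did not pass in any of these, had a log2 ratio of 0.08 that turned to -0.0046 with TMM and -0.058 on the cluster's own totals. Over the other scalings and the unstranded counts, 82 of 97 tested log2 ratios of 25 named genes kept direction and call; Mir300, Mir134, Mir376a, Mir666 and Mir495 were added to these after their values were seen. Depth limits the genes under about 5 CPM, where 1 count of replicate 1 is 1.57 CPM.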

Other observations

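Hairpins that lie near each other in the cluster kept or lost their relative level between the libraries, pair by pair. The pairs were chosen after their values were seen, and the ratios are given with no test. Mir369 and Mir412, whose starts are 129 bases apart, stood at 25.5 to 1 in counts in replicate 1 and 29.6 to 1 in replicate 2. Mir369 and Mir409, 260 bases apart, stood at 2.24 and 1.82. Mir369 and Mir410, 297 bases apart, stood at 85 and 43.9. Mir543 and Mir666, 173 bases apart, stood at 0.438 and 5.21, and Mir485 and Mir134, 763 bases apart, at 0.885 and 3.18. In replicate 1 Mir410 had 3 counts, Mir543 7, Mir412 10, Mir666 16, Mir485 23 and Mir134 26. Ratios with these genes in that library therefore carry a large counting error.

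The opposite-strand column held 0 counts over the 39 genes in replicate 1 and 1 in replicate 2, at Mir299a, against 6955 and 27200 on the strand of the genes.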
